A study of Homo sapiens with 48 samples.

Results

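Ribosome-protected fragments (RPFs) of the SW480 control line were compared between cells kept with DMSO (-DOX) and cells given 1 µg/ml doxycycline for 5 days (+DOX). SW480 is a human colorectal cancer line with mutant APC. The members were set by their labels, with earlier results of these data known. They are the 8 RPF libraries of the line carrying the non-targeting shCTRL, 4 of -DOX and 4 of +DOX, out of 48 libraries in the series. The series holds 3 such lines (shCTRL, shEIF2B1, shEIF2B4), and each of its 24 lysates gave an RPF library and a total cytoplasmic RNA library. All lines are pools of cells transduced with a doxycycline-inducible shRNA vector that also carries a GFP reporter. Thus +DOX cells of shCTRL differ from -DOX cells by the drug, by an expressed hairpin and by the reporter, and these cannot be told apart. The 4 replicates were run in separate weeks. Each -DOX library was paired with the +DOX library of the same replicate number, and weeks are numbered as the replicates.

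Doxycycline is a tetracycline antibiotic that is used to switch on inducible vectors. Tetracyclines bind bacterial ribosomes and can also slow the ribosomes of mitochondria, which make subunits of the respiratory chain. RPFs are the short pieces of mRNA that a ribosome shields from nuclease, and their amount on a coding sequence (CDS) follows both the amount of the mRNA and its loading with ribosomes. Translation efficiency (TE) was therefore computed, on the log2 scale, as the RPF value of a lysate less its total RNA value. mRNAs of ribosomal proteins and elongation factors belong to the TOP class, which starts with C and a run of pyrimidines and whose loading with ribosomes is known to depend on mTOR. RPF reads of mitochondrial RNA were removed by the authors, so the mitochondrially encoded mRNAs are not measured here.

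The deposited values are regularized log2 values, a scale that pulls the differences of weakly covered genes towards 0, and they carry no depth. They were made apart for RPFs, with 11145 genes, and for total RNA, with 11947, of which 10836 genes have both and allow TE. Values of different genes are not per length and are not compared. Of the markers of colorectal epithelium, 9 of 12 were in the RPF table, among them EPCAM, KRT8, KRT18, KRT19, CDH1 and CDX2, against 2 of 10 leukocyte markers (CD14 and CD68, neither called) and 1 of 12 fibroblast and endothelial markers (ACTA2). On induction CDH1 (0.64) and EPCAM (0.33) rose on the log2 scale and KRT19 (-0.46) fell. Over the 9 epithelial markers the median change was -0.02, with 4 above 0 and 5 below. CDH1 had low log2 RPF values, 4.11 to 4.57 -DOX. It rose by 0.16, 1.24, 1.05 and 0.10 in replicates 1 to 4 (limma adjusted p = 0.0721). No gene is targeted in shCTRL. In the RPFs of the lines that target them, EIF2B1 changed by -0.72 in shEIF2B1 and EIF2B4 by -0.64 in shEIF2B4 on the log2 scale.

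After induction of shCTRL, 583 genes rose in RPFs (5.23% of those tested) and 515 fell (4.62%). The calls are from limma with the week as a block and a Benjamini-Hochberg adjusted p under 0.1 over all genes. With each library centred on its median the split was 456 higher and 638 lower. Changes were small: the median was 0.43 among genes called higher and -0.39 among genes called lower (log2), and 7 genes rose and 0 fell by over 1. Of the called genes, 480 were higher in each of the 4 weeks and 452 lower in each. The calls were made from these same weekly differences, so the counts are a description and no separate support. The samples share a cell pool and differ by week. The p-values therefore measure how far the +DOX minus -DOX difference varies between weeks of this line. Fewer cells of a type and less RNA per cell cannot be told apart.

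Week 1 stood apart from the other weeks. Across genes, the RPF change of week 1 had a correlation of -0.14 to 0.15 with the change of any other week, while weeks 3 and 4 reached 0.67 with each other. The genes called higher had a median log2 RPF change of 0.16 in week 1, 0.56 in week 2, 0.58 in week 3 and 0.43 in week 4. Those called lower had medians of -0.19, -0.45, -0.54 and -0.38 in the same order. Without week 1, 3526 genes passed the limma test. Without week 2, 3 or 4 the numbers were 4, 3 and 4. LOXL4, C21orf91 and CEMIP were called in all 4 of these fits, NDUFAF3 without week 1 or 2 and AZGP1 without week 1 or 4. No other gene kept its call without week 2, 3 or 4, when 2073, 1153 and 1578 genes had an unadjusted p under 0.05, so the count of called genes in every list below falls to 0 there. With no block for the week, limma called 0 genes and 830 had an unadjusted p under 0.05.

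**Figure D1:**
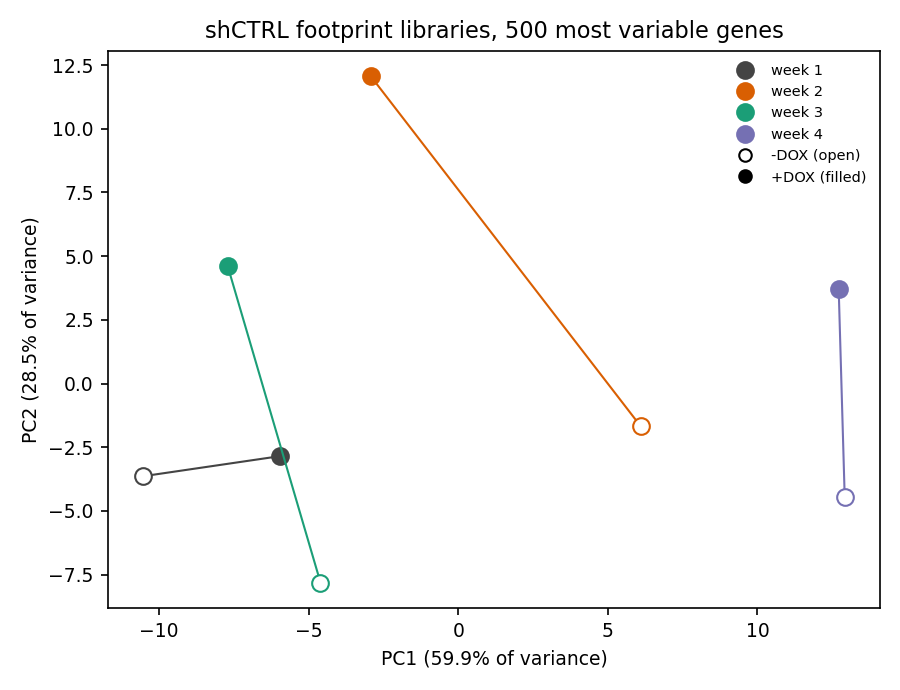
Scores of the 8 shCTRL RPF libraries on the first and second principal components (in % of variance) of the 500 most variable genes, with a line from the -DOX library (open) to the +DOX library (filled) of each week. PC1 held 59.9% of the variance and PC2 28.5%, and the +DOX library lay above its -DOX partner on PC2 in all weeks, from -3.64 to -2.85 in week 1 and from -1.67 to 12.1 in week 2.

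The largest rises with the same direction in all weeks began with LOXL4. LOXL4 (ENSG00000138131.4), a lysyl oxidase-like enzyme that crosslinks extracellular matrix, lies on the minus strand of chromosome 10 from 98247690 to 98268250 (GRCh38, GENCODE v29). Its log2 RPF values in weeks 1 to 4 were 10.49, 9.81, 10.08 and 9.47 -DOX and 11.26, 11.93, 11.90 and 11.09 +DOX. The groups did not overlap, and week 1 had the smallest step. LOXL4 rose by 1.58 on the log2 scale (standard error 0.17, limma adjusted p = 0.00194).

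C21orf91 (ENSG00000154642.11; chromosome 21 from 17788967 to 17819386, minus strand) had log2 RPF values of 6.02, 6.14, 5.45 and 6.38 -DOX and 6.88, 7.89, 7.41 and 7.87 +DOX. The groups did not overlap and it rose by 1.52 (standard error 0.15, limma adjusted p = 0.00194). For APOE, the apolipoprotein of lipid transport (chromosome 19 from 44905754 to 44909393, plus strand), the values were 7.98, 7.25, 7.31 and 6.83 -DOX and 8.25, 9.39, 9.22 and 8.14 +DOX. All +DOX values of APOE exceeded all -DOX values, but the step was far smaller in week 1 than in weeks 2 and 3. The mean change of APOE was 1.41 (standard error 0.22, limma adjusted p = 0.0217).

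CEMIP, a hyaluronan-binding protein that takes part in hyaluronan breakdown (chromosome 15 from 80779343 to 80951776, plus strand), had its largest step in week 1. Its log2 RPF values were 8.29, 8.60, 8.96 and 9.05 -DOX and 9.55, 9.32, 10.14 and 9.89 +DOX. It rose by 1.00 (standard error 0.10, limma adjusted p = 0.00194). The further genes among the 10 largest rises were SLC16A4, a monocarboxylate transporter family member (1.08), FOLR1, a folate receptor (1.06), AZGP1, a secreted glycoprotein (0.97), HLA-DQB1, an MHC class II chain (0.95), PLPP1, a lipid phosphatase (0.91) and ASNS, asparagine synthetase (0.85). FOLR1 was level in week 1, at 5.56 -DOX and 5.57 +DOX. HLA-DQB1 belongs to a multigene family whose reads can be split between members, so its value is uncertain.

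**Figure D2:**
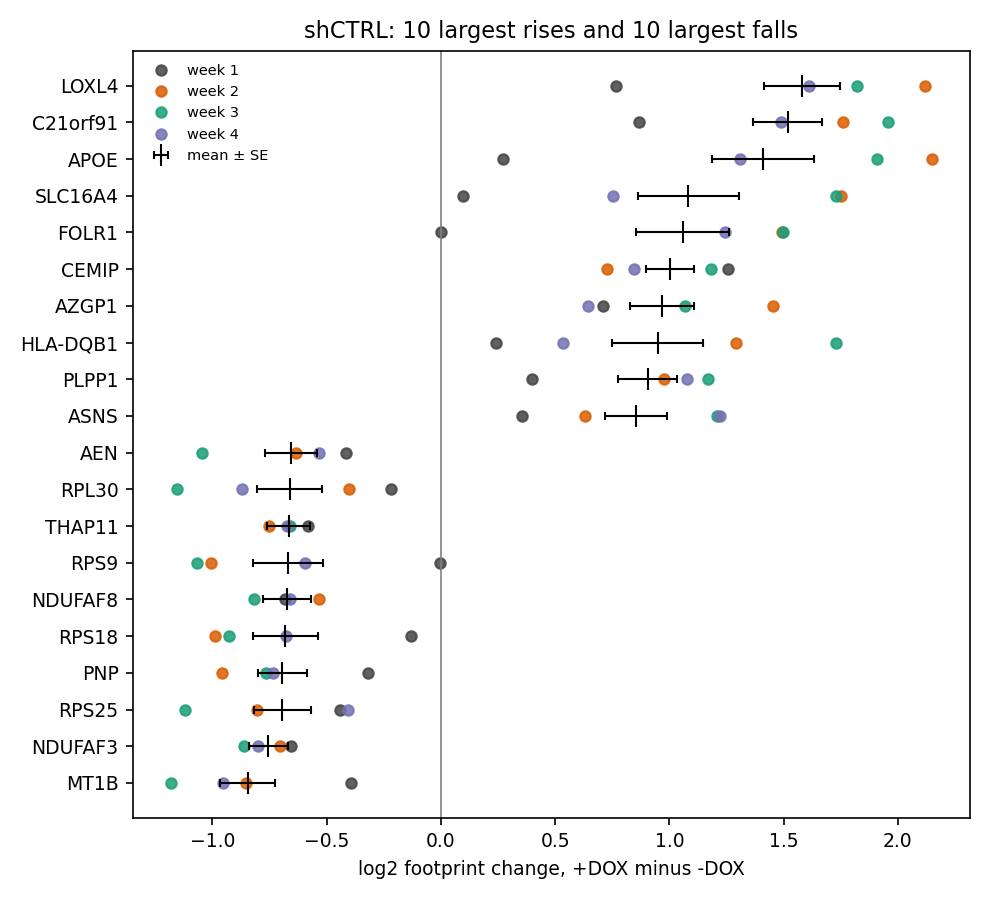
Log2 RPF change (+DOX minus -DOX, horizontal axis) of the 10 largest rises and 10 largest falls in shCTRL, with a point per week and the mean ± SE over 4 weeks in black. Mean changes run from 1.58 for LOXL4 to -0.85 for MT1B, and week 1 is the smallest step for most rises but the largest for CEMIP.

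The 10 largest falls with the same direction in all weeks held 4 genes of the cytosolic ribosome (RPS25, RPS18, RPS9 and RPL30) and 2 assembly factors of respiratory complex I (NDUFAF3, NDUFAF8). NDUFAF3 (chromosome 3 from 49020459 to 49023495, plus strand) moved evenly over the weeks. Its log2 RPF values were 9.88, 9.45, 9.81 and 9.29 -DOX and 9.23, 8.74, 8.95 and 8.49 +DOX, without overlap. The change was -0.75 (standard error 0.09, limma adjusted p = 0.00338), and -0.67 for NDUFAF8 (adjusted p = 0.0217). MT1B, a metallothionein with close paralogs, had the lowest change at -0.85 (adjusted p = 0.0147), with week 1 again the smallest step, from 8.37 to 7.98. The remaining falls were PNP, a purine nucleoside phosphorylase (-0.69), THAP11, a zinc finger transcription factor (-0.67), and AEN, a nuclease induced by p53 (-0.66).

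Cytosolic ribosomal proteins were lower in RPFs, with little change in total RNA. Of 83 measured genes, 46 were called lower and 0 higher in RPFs, where 4.62% of all genes fell. Their median change was -0.41 against 0.01 over all genes. In total RNA 1 of 84 was called lower, against 2.18% of all genes, with a median of -0.01. There 6 had an unadjusted p under 0.05, against 69 in RPFs. The large subunit had 26 of 50 called lower and the small subunit 20 of 33. The members above 0 were RPS27L (0.27), a p53-inducible paralog of RPS27, and RPS10 (0.07), and neither passed the test.

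RPS18 (chromosome 6 from 33272010 to 33276510, plus strand) shows the pattern. Its log2 RPF values were 13.40, 13.48, 13.60 and 13.96 -DOX and 13.27, 12.50, 12.68 and 13.28 +DOX. In total RNA they were 14.41, 14.42, 14.72 and 14.51 -DOX and 14.39, 14.65, 14.62 and 14.41 +DOX. The RPF groups did not overlap and those of total RNA did. In limma the RPF change of RPS18 was -0.68 (standard error 0.14, adjusted p = 0.0399) and its total RNA change 0.00 (standard error 0.09, adjusted p = 0.999).

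RPS9 had log2 RPF values of 12.36, 12.44, 12.62 and 12.42 -DOX and 12.36, 11.43, 11.56 and 11.83 +DOX. It was level in week 1 and lower by 1.00, 1.07 and 0.59 in weeks 2 to 4, for a mean change of -0.67 (adjusted p = 0.0454). RPS25 had log2 RPF values of 12.66, 12.81, 12.89 and 12.64 -DOX and 12.22, 12.01, 11.78 and 12.23 +DOX, a change of -0.69 (adjusted p = 0.0333) seen in all weeks. The largest falls of the large subunit were RPL30 (-0.66), RPL10L (-0.65), RPL13A (-0.59) and RPL27A (-0.59). RPL10L shares long stretches with RPL10, so reads of RPL10 may have been counted on it. Ribosomal protein genes have many near-identical copies in the genome, so counts of single genes are uncertain.

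Start sites of the TOP class can be read from the genome. They are printed from 10 bases before the RefSeq start to 20 bases from it (GRCh38.p14, 5′ to 3′), with the C at the start and the pyrimidine run after it in capitals. Shown are the 4 most lowered RPS genes, 3 of the 4 most lowered RPL genes, the 3 most lowered translation factors and the translation factor that rose, with and without the motif, because 4 of the 10 largest falls are ribosomal proteins. RPS27 had an RPF change of -0.60, and no sequence is given for RPL30.
RPS25, chr11:119018324-119018353, minus strand: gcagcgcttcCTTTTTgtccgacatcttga
RPS18, chr6:33272065-33272094, plus strand: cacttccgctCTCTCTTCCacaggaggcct
RPS9, chr19:54200848-54200877, plus strand: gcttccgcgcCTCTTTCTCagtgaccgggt
RPS27, chr1:153990752-153990781, plus strand: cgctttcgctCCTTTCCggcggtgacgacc
RPL10L, chr14:46651762-46651791, minus strand: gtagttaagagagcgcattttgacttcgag
RPL13A, chr19:49487598-49487627, plus strand: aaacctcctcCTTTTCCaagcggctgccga
RPL27A, chr11:8682782-8682811, plus strand: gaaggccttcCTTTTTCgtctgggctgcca
EEF2, chr19:3985444-3985473, minus strand: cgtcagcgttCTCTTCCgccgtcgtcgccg
EEF1G, chr11:62573872-62573901, minus strand: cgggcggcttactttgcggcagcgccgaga
EEF1B2, chr2:206159599-206159628, plus strand: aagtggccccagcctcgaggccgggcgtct
EIF4A2, chr3:186783567-186783596, plus strand: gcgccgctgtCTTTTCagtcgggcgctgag
RPL10L, EEF1G and EEF1B2, which fell, have no such run at their RefSeq start, and EIF4A2, which rose, has it. A start of C followed by at least 4 of C or T was found in 43 of 68 ribosomal protein genes with a RefSeq promoter (63.2%) and in 4.04% of all 27305 promoters of the reference. Ribosomal protein genes with it had a median RPF change of -0.46 and those without it -0.33 (n = 43 and 25). The 472 other measured genes with this start had a median of -0.01, with 5.51% called lower and 4.24% higher. The 8487 other genes without it had a median of 0.02, with 4.08% called lower and 5.02% higher. RefSeq starts are annotated positions and were not mapped in these cells.

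Where 4.62% of all genes fell and 5.23% rose, 5 of 33 cytosolic translation factors fell and 1 rose in RPFs. Their median was -0.15. EEF2, the factor that moves the ribosome along the mRNA, changed by -0.49 in RPFs (adjusted p = 0.0927) and EEF1G and EEF1B2, subunits of the exchange factor of eEF1A, by -0.47 and -0.45. EEF2 was higher +DOX in week 1 (12.76 to 12.98) and lower in week 2 (12.74 to 11.87), week 3 (12.99 to 12.20) and week 4 (12.95 to 12.42). EIF4A2, an eIF4A helicase paralog, was the gene that rose (0.47, adjusted p = 0.0333). Of 25 ribosome biogenesis genes 3 fell, RRS1 (-0.64), WDR74 (-0.42) and BYSL (-0.39), and the median was -0.28.

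The lower RPFs of the cytosolic ribosome were not seen in week 1. The median RPF change of the 83 genes was -0.03 in week 1, -0.69 in week 2, -0.53 in week 3 and -0.35 in week 4, while that of all genes stayed between 0.00 and 0.01. Without week 1, 77 of 83 were called lower and 1 higher. In that fit calls rose over all genes too, to 1681 lower and 1845 higher of 11145. Without week 2, 3 or 4 the number called lower was 0 in limma, with 47, 41 and 52 at an unadjusted p under 0.05 and medians of -0.30, -0.36 and -0.42.

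**Figure D3:**
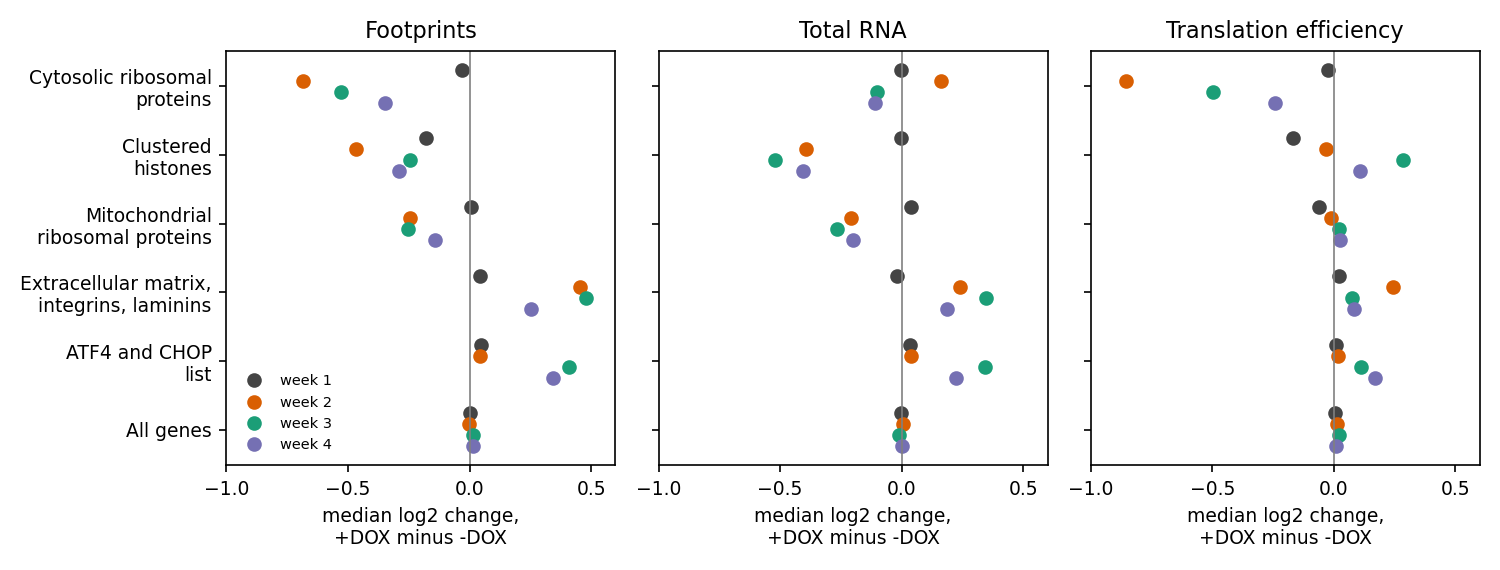
Median log2 change (+DOX minus -DOX) of 5 gene lists and of all genes in RPFs, total RNA and TE, with a point per week. Cytosolic ribosomal proteins lie at -0.35 to -0.69 in RPFs in weeks 2 to 4 and at -0.03 in week 1, with total RNA between -0.11 and 0.16, while clustered histones lie at -0.39 to -0.52 in total RNA in weeks 2 to 4.

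In TE, which tests whether RPFs and total RNA moved unequally, 20 genes rose (0.185% of those tested) and 22 fell (0.203%) by limma. Of the 22 that fell, 11 were cytosolic ribosomal proteins, with RPS9 at -0.72 (standard error 0.15, adjusted p = 0.089) and RPL13A at -0.69 (standard error 0.15, adjusted p = 0.0976). The median TE change of 82 ribosomal protein genes was -0.41 against 0.02 over all genes. By week it was -0.02, -0.86, -0.50 and -0.24. With the trend of TE along CDS GC content removed the median was -0.42, but 0 of 81 passed limma's test and 66 had an unadjusted p under 0.05. With the trend along CDS length removed the median was -0.43, and again 0 of 81 passed, with 66 at an unadjusted p under 0.05. Without week 1, 621 genes were called in TE, and without week 2, 3 or 4 the numbers were 0, 1 and 18. At an adjusted p under 0.05, 0 genes were called in TE, and 1630 of 10836 had an unadjusted p under 0.05.

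The lowest TE change among called genes lower in all weeks was that of RGPD6 (-0.76, adjusted p = 0.089), from a family of near-identical RANBP2-like copies, so its reads may be shared. RGPD6 was not called in RPFs (-0.17, limma adjusted p = 0.359) and rose in total RNA (0.59, limma adjusted p = 0.0964). The rises of TE were led by BRD3, a bromodomain protein (0.83), UFM1, a ubiquitin-like modifier (0.78), and ANKHD1-EIF4EBP3, a readthrough of neighbouring genes (0.75), each at an adjusted p of 0.089. ANKHD1-EIF4EBP3 changed by 0.22 in RPFs (limma adjusted p = 0.171) and by -0.53 in total RNA (limma adjusted p = 0.109). Of the 42 genes called in TE, 34 were also called in RPFs, and 11 of the 20 rises were below 0 in total RNA. BRD3 had log2 RPF values of 6.88, 6.53, 6.63 and 6.71 -DOX and 7.57, 8.07, 7.01 and 7.21 +DOX, without overlap. Its total RNA was 7.42, 7.32, 7.72 and 7.26 -DOX and 7.34, 7.32, 7.61 and 7.26 +DOX, with a change of -0.05 (adjusted p = 0.732).

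Total RNA of the same lysates had 271 genes called higher (2.27%) and 260 lower (2.18%), and without weeks 1 to 4 in turn 2452, 166, 3 and 12 genes were called. Of the genes that rose in RPFs, 562 were in the total RNA table, of which 528 were above 0 there and 138 were called higher. Of the genes that fell in RPFs, 499 were in that table, of which 441 were below 0 and 89 were called lower. No gene called in RPFs was called in the opposite direction in total RNA. LOXL4 led the rises in total RNA as well (1.37, standard error 0.13, adjusted p = 0.00144), followed by C21orf91 (1.30) and IFITM1 (1.19). The lowest changes in total RNA were those of H4C14, a histone H4 gene, S1PR3, a sphingosine phosphate receptor that is not in the RPF table, and RP1-34B20.21, at -0.59, -0.59 and -0.58.

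**Figure D4:**
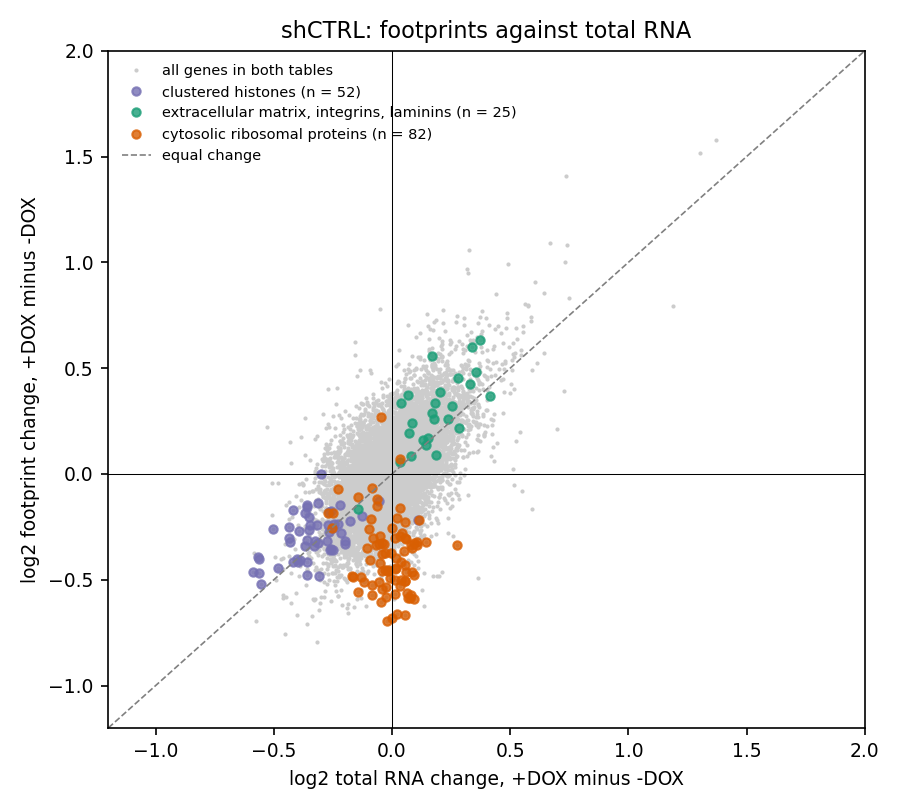
Log2 RPF change against log2 total RNA change in shCTRL (+DOX minus -DOX), with a point per gene and 3 gene lists in colour. Cytosolic ribosomal proteins spread downwards around 0 in total RNA, with medians of -0.41 in RPFs and -0.01 in total RNA, while histones and matrix genes lie nearer to the line of equal change.

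Histone genes were lower at both levels. Of 52 clustered histone genes, which encode the histones made during S phase, 24 fell and 0 rose in RPFs (median -0.29). In total RNA 35 of 57 fell (median -0.34). Over all genes 4.62% fell in RPFs and 2.18% in total RNA. In TE limma called 0 histone genes, 2 had an unadjusted p under 0.05 and the median was 0.03. With the trend along CDS GC content removed, 9 of the 52 were called lower in RPFs, against 261 of all 10848 genes. H3C12 had log2 RPF values of 11.12, 10.62, 11.05 and 10.79 -DOX and 10.69, 9.65, 10.66 and 10.50 +DOX, overlapping slightly, and changed by -0.52 (adjusted p = 0.0425). Histone genes are near-identical copies, so counts of single genes are uncertain. By week, the median total RNA change was 0.00, -0.39, -0.52 and -0.41.

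Of 30 genes of DNA replication 4 fell in RPFs, ORC6 and CDT1 of origin licensing (-0.45 and -0.44), TK1, a thymidine kinase (-0.35), and GINS2 of the replicative helicase (-0.32). In week 1 their median was 0.19, against -0.57, -0.30 and -0.19 in weeks 2 to 4. Of 29 genes of mitosis 1 fell, BIRC5, which encodes survivin (-0.58), against 4.62% of all genes. Among 11 SR splicing factors 4 fell, led by SRSF2 (-0.71) and SRSF6 (-0.50). With the GC trend removed 1 of 10 fell, against 261 of all 10848 genes. SRSF2 was higher +DOX in week 1 and lower in weeks 2 to 4.

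Where 5.23% of all genes rose, 11 of 25 genes of extracellular matrix, integrins and laminins rose and 0 fell in RPFs, with a median of 0.29. They included LAMB3, a laminin chain (0.63), PLAU, the urokinase (0.56), and ITGA3, an integrin that binds laminin (0.48). LAMB3 had log2 RPF values of 8.52, 7.80, 8.55 and 7.85 -DOX and 8.57, 9.09, 9.31 and 8.29 +DOX, and the groups overlapped, with the smallest step in week 1. In total RNA 5 of the 25 rose, against 2.27% of all genes, with a median of 0.18. In TE limma called 0 of them, with 4 at an unadjusted p under 0.05. The fibroblast marker ACTA2 rose by 0.31 in RPFs (adjusted p = 0.0976), the other 11 markers of its list were not among the genes analysed, and their part in the matrix genes was not tested.

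Where 5.23% of all genes rose and 4.62% fell, interferon-stimulated genes had 4 of 27 called higher and 0 lower. These were IFITM1 (0.79), IFITM2 (0.51) and IFITM3 (0.47), membrane proteins that restrict virus entry, and PSMB9, an immunoproteasome subunit (0.33). IFITM1 had log2 RPF values of 12.98, 12.27, 12.61 and 12.22 -DOX and 13.15, 13.31, 13.77 and 13.02 +DOX. In total RNA it had 10.42, 10.41, 10.57 and 10.10 -DOX and 10.98, 11.99, 12.02 and 11.26 +DOX. It did not overlap between groups at either level. The IFITM genes are close paralogs and can share reads. Of 13 genes of the small RNA pathway, which processes hairpins, 0 passed limma's test in RPFs and 3 had an unadjusted p under 0.05.

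Against 4.62% and 5.23% of all genes, 14 of 78 mitochondrial ribosomal proteins fell and 0 rose in RPFs. The falls were led by MRPL34 (-0.47) and MRPS34 (-0.42), and the median of the 78 was -0.17. With the GC trend removed 3 of 77 were called lower and 1 higher, where 261 of all 10848 genes were called lower and 352 higher. Their total RNA had a median of -0.15 and 3 of 81 called lower, against 2.18% of all genes. Of 25 genes of mitochondrial protein import 5 fell, including TOMM7 (-0.39), TOMM40 (-0.37) and TOMM22 (-0.35) of the outer membrane channel. Among 15 mitochondrial chaperones and proteases limma called 0, with 4 at an unadjusted p under 0.05, and their median was 0.05. Of 13 mitochondrial translation factors it called 0, with 1 at an unadjusted p under 0.05.

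Few nuclear genes of the respiratory chain were called, where 5.23% of all genes rose and 4.62% fell. Of 38 complex I genes 1 fell, NDUFS3, a core subunit (-0.57). Of 45 genes of complexes II to V, 4 rose and 1 fell. ATP5F1D of the ATP synthase fell (-0.27). The rises were ATP5F1E (0.56), ATP5MK (0.36) and ATP5PF (0.31) of the ATP synthase and COX7C of cytochrome oxidase (0.35). ATP5F1E had log2 RPF values of 9.04, 9.57, 8.82 and 9.49 -DOX and 8.87, 9.91, 9.76 and 10.62 +DOX, lower in week 1 and higher in weeks 2 to 4. With the trend along CDS GC content removed, the adjusted p of these 4 rises lay between 0.121 and 0.275.

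In the integrated stress response phosphorylated eIF2 slows initiation, and ATF4 is translated and switches on genes of amino acid supply. Of 27 genes of ATF4 and CHOP and their targets 4 rose and 0 fell in RPFs, against 5.23% and 4.62% of all genes. In this list 26 genes were above 0. The median of the list was 0.05, 0.04, 0.41 and 0.34 in weeks 1 to 4. ASNS, which makes asparagine (chromosome 7 from 97852118 to 97872542, minus strand), had log2 RPF values of 9.43, 9.31, 8.81 and 8.55 -DOX and 9.78, 9.94, 10.02 and 9.77 +DOX, without overlap, a rise of 0.85 (adjusted p = 0.0217). NUPR1, a stress-induced chromatin protein, rose by 0.83, LAMP3, a lysosomal membrane protein, by 0.71 and SLC7A11, a cystine transporter, by 0.51. Of 11 amino acid transporters, SLC7A11, SLC6A9 (0.51), SLC38A2 (0.48) and SLC43A1 (0.30) rose. With the GC trend removed 1 of 10 was called higher, SLC43A1, against 352 of all 10848 genes.

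The promoter of ASNS holds an ATF4 type element, TGATGNAA on either strand, which is shown in capitals because ASNS is the most changed member of this list.
ASNS, chr7:97872458-97872487 of GRCh38.p14, minus strand: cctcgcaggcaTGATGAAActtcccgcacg
The match begins 61 bases before the RefSeq start. These letters were found in 4 of 21 listed genes with a RefSeq promoter and in 3.67% of all promoters, in windows of 250 bases before to 50 bases after the start.

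ATF4 itself had log2 RPF values of 9.20, 9.21, 9.20 and 8.80 -DOX and 9.24, 9.25, 9.84 and 9.37 +DOX. All +DOX values of ATF4 lay above its -DOX values, but they hardly differed in weeks 1 and 2, and the change of 0.32 did not pass the test (standard error 0.11, adjusted p = 0.121). TRIB3, a pseudokinase and target of CHOP, had 0.24 (adjusted p = 0.166), ATF5 0.16 (adjusted p = 0.493) and DDIT3, which encodes CHOP, 0.02 (adjusted p = 0.939). PPP1R15A, the stress-induced cofactor of the eIF2α phosphatase, fell, with a change of -0.37 (adjusted p = 0.072), and was not called with the GC trend removed (-0.32, adjusted p = 0.1003). It was lower in all weeks, at 7.04, 6.50, 6.84 and 6.69 -DOX and 6.61, 6.34, 6.40 and 6.26 +DOX. Of the 5 eIF2B subunits, the exchange factor of eIF2, 0 passed limma's test and 1 had an unadjusted p under 0.05, with changes from -0.27 for EIF2B2 to 0.07 for EIF2B3.

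Over all genes 4.62% fell and 5.23% rose, and of 20 AP-1 and immediate early genes 6 fell and 0 rose. With the GC trend removed 1 of the 20 fell, against 261 of all 10848 genes. FOS, a subunit of AP-1, had log2 RPF values of 7.85, 7.17, 7.84 and 7.71 -DOX and 7.59, 6.94, 7.05 and 6.79 +DOX, a change of -0.55 (adjusted p = 0.0465). The ranges of FOS overlapped, and it was lower +DOX in each week. IER5 (-0.43), JUN (-0.40) and IER3 (-0.35) also fell. Among 15 WNT targets ASCL2, a transcription factor of intestinal stem cells, and SP5 fell (-0.50 and -0.27), while NOTUM, a secreted WNT antagonist, rose (0.43). Of 28 lysosome and autophagy genes 4 rose, led by GABARAPL1 (0.53) and LAMP2 (0.48), and SQSTM1, an autophagy receptor, fell (-0.48).

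Further lists had few calls, where 5.23% of all genes rose and 4.62% fell. NF-κB targets had LCN2 (0.62) of 9 called higher, glycolysis ALDOC (0.46) of 19, hypoxia ADM (0.39) and KDM3A (0.34) of 13, and cytosolic tRNA synthetases LARS1 (0.36) of 20. Cholesterol synthesis had DHCR7 (-0.39) and MVK (-0.41) of 25 called lower, heat shock chaperones DNAJB1 (-0.37) of 13 and mitochondrial tRNA synthetases SARS2 (-0.44) of 17. Of endoplasmic reticulum chaperones SEL1L rose (0.38) and SDF2L1 fell (-0.38). Of 283 zinc finger genes 1 rose and 5 fell, of 24 hnRNP genes 1 fell (HNRNPA0), and of 45 proteasome subunits 1 rose (PSMB9). Limma called 0 of 8 genes of the CCT chaperonin, with 0 at an unadjusted p under 0.05, and 0 of 14 listed metallothioneins and metal genes, with 6. MT1B, which fell, is not on that list.

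Genes that fell had short, GC-rich coding sequences. Their median CDS was 792 bases with 60.9% GC, against 1597.5 bases and 48.2% for genes that rose and 1308 bases and 52.5% for all genes with an annotated CDS. Among the 25% of genes with the highest GC content 10.6% fell and 3.50% rose, and among the 25% with the lowest 0.627% fell and 8.08% rose. Across 10848 genes, the correlation of the RPF change with CDS GC content was -0.30 in shCTRL. By week it was -0.26, 0.03, -0.33 and -0.37. Across the 10548 genes also in total RNA, the correlation was 0.07 for total RNA and -0.46 for TE. For the RPF changes of shEIF2B1 and shEIF2B4 it was 0.42 and 0.31, opposite in sign to shCTRL. These points share libraries and are given as a description. With the GC trend of each library removed, 352 genes were called higher and 261 lower, and of 82 cytosolic ribosomal proteins 38 were called lower. With the CDS length trend removed, 477 genes were called higher and 415 lower. Of the 82 ribosomal proteins 34 were then called lower, with a median of -0.37.

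Lastly, the same induction was read in the other lines, which share the weeks but no library with shCTRL. There 2531 genes rose (22.7%) and 2976 fell (26.7%) with shEIF2B1, and 1318 rose (11.8%) and 1337 fell (12.0%) with shEIF2B4. Of the 583 genes that rose in shCTRL, 83.4% were above 0 with shEIF2B1 and 81.8% with shEIF2B4, where 47.9% and 46.4% of all genes were above 0. Of the 515 that fell, 79.6% and 85.6% were below 0, against 52.1% and 53.6% of all genes. In the same direction in all 3 lines, 258 genes were called higher and 112 lower. The largest mean rises among these were those of LCN2, LAMP3, SLPI, NIBAN1 and SERPINA3, and the lowest mean changes those of RPL17-C18orf32, a readthrough, SKA3, RPL30, SRSF2 and ASB4.

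Cytosolic ribosomal proteins had median RPF changes of -0.45 with shEIF2B1 and -0.31 with shEIF2B4, beside -0.41 in shCTRL, and 71 and 38 of 83 were called lower. LOXL4 rose by 1.90 and 1.15 and APOE by 2.13 and 1.95. A moderated F test of limma over the product terms of shRNA and DOX asked whether the change differed among lines, and 1015 genes did (9.11%). This test includes the libraries that chose the shCTRL calls, of which 111 that rose and 55 that fell were among those genes. LOXL4 (adjusted p = 0.183), APOE (adjusted p = 0.284) and RPS18 (adjusted p = 0.458) did not pass it. The block of this fit was the week shared by all 3 lines, so -DOX and +DOX libraries were not paired within a line. Not passing it therefore does not show an equal change. For LOXL4 the difference from shCTRL was 0.32 with shEIF2B1 and -0.43 with shEIF2B4, each with a standard error of 0.27.

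Of the 27 genes of the ATF4 and CHOP list, 21 passed the test of the difference. LAMP3 rose by 0.71 in shCTRL, 3.64 with shEIF2B1 and 3.55 with shEIF2B4 (adjusted p = 7.52e-09). ASNS rose by 0.85, 1.69 and 1.80 (adjusted p = 0.0361). In the same order, DDIT3 had 0.02, 1.51 and 1.75 (adjusted p = 1.56e-05), and PPP1R15A -0.37, 0.71 and 1.05 (adjusted p = 6.37e-07). NDUFAF3 changed in shCTRL but had 0.03 with shEIF2B1 and -0.10 with shEIF2B4 (adjusted p = 0.0251). CEMIP rose by 1.00, 0.54 and 0.35 (adjusted p = 0.0762).

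**Figure D5:**
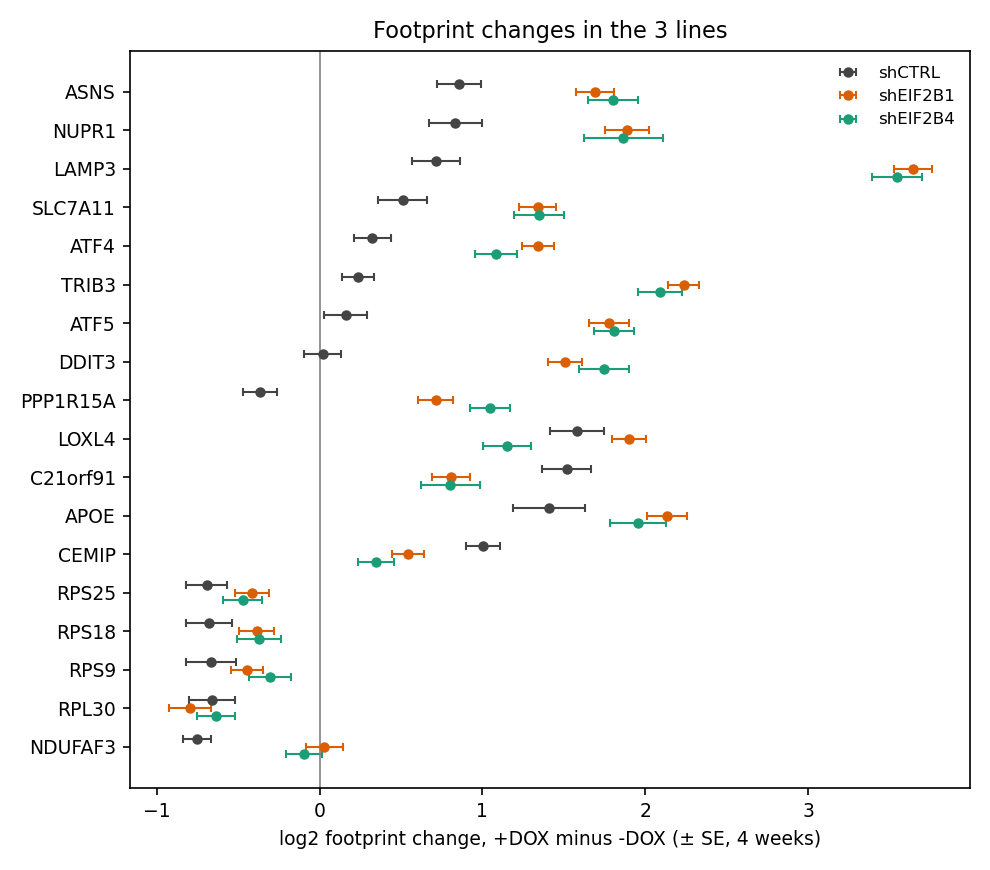
Log2 RPF change (+DOX minus -DOX, mean ± SE over 4 weeks) in shCTRL, shEIF2B1 and shEIF2B4 for 18 genes. ATF4, TRIB3, ATF5 and DDIT3 lie at 0.02 to 0.32 in shCTRL and at 1.08 to 2.24 in the other lines, while RPS25, RPS18, RPS9 and RPL30 lie below 0 in all 3.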

How the data were processed

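RPF and total RNA tables of SW480 cells were used, with groups and replicate numbers taken from the labels. The authors trimmed reads with cutadapt 1.18, aligned them to GENCODE v38 transcripts with Bowtie2, quantified total RNA with RSEM and counted RPFs on the CDS. They deposited regularized log2 values, made by the authors with DESeq2 for each kind of library. Replicate 3 joins 2 sequencing runs. Depth is unknown, so no counting error is given and count tests were not run.

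Fits used limma 3.58.1 under R 4.3.3 (lmFit with the week as a block, eBayes with a trend, two-sided, Benjamini-Hochberg over all genes of a table, called under 0.1). The labels give a replicate number and no week, and that number is used here as the week. Same-numbered RPF libraries correlated at 0.29 to 0.86 after group means were removed (-0.04 to 0.60 in total RNA). For replicates 1 and 2 of both, the highest correlation with another number was larger (0.53 and 0.59 in RPFs), so the pairing rests on the labels. The script was tested on simulated data. Genes named are the 10 largest rises and falls in RPFs (3 in total RNA and TE) called and moving alike in 4 weeks, up to 4 called genes per list, the eIF2B and stress genes, and the 5 largest mean changes shared by 3 lines. RPS27L and RPS10, outside this rule, were named after their values were seen. Members and the 43 lists were chosen with earlier results of these data known. CDS and positions are from GENCODE v29 (97.3% of RPF genes matched) and promoters from RefSeq GRCh38.p14 (81.0% matched). Alternatives are given in the closing section, and the removal of the CDS length trend was added after the data were seen. An item under this rule is not reported here.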

Additional observations from a re-analysis of the deposited data

Results flagged for a closer look

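In 5 of 260 groups of 4 libraries, a value stood outside the others of its group by Dixon's criterion, which chance exceeds in about 1 of 20 groups. These log2 RPF values were SLC7A11 in week 3 +DOX (7.61, others 7.05 to 7.14), NOTUM in week 4 +DOX (9.69, others 10.60 to 10.70), ATF4 in week 4 -DOX (8.80, others 9.20 to 9.21), HNRNPA0 in week 1 +DOX (10.59, others 9.83 to 9.95) and H4C14 in week 2 +DOX (12.01, others 12.47 to 12.54).

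The RPF change differed among the lines by the moderated F test in genes whose direction was not the same in all 3. Values are the log2 change in shCTRL, shEIF2B1 and shEIF2B4 and the Benjamini-Hochberg adjusted p. These were UFM1 (0.62, 0.02 and -0.05, limma adjusted p = 0.0558), ALDOC (0.46, -0.08 and -0.06, limma adjusted p = 0.0722), ATP5PF (0.31, -0.35 and -0.23, limma adjusted p = 0.0257) and SRSF8 (-0.34, 0.08 and 0.07, limma adjusted p = 0.0824). They also included TIMM10B (-0.35, 0.13 and -0.11, limma adjusted p = 0.094), PPP1R15A (-0.37, 0.71 and 1.05, limma adjusted p = 6.37e-07), TOMM7 (-0.39, 0.13 and -0.28, limma adjusted p = 0.0605) and SQSTM1 (-0.48, -0.05 and 0.23, limma adjusted p = 0.00539). Further genes were RPL10L (-0.65, 0.28 and -0.06, limma adjusted p = 0.00752) and NDUFAF3 (-0.75, 0.03 and -0.10, limma adjusted p = 0.0251).

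It differed in size, with the same direction in all lines, in a further set, given in the same form. They were SLC16A4 (1.08, 2.22 and 2.09, limma adjusted p = 0.0644), CEMIP (1.00, 0.54 and 0.35, limma adjusted p = 0.0762), HLA-DQB1 (0.95, 2.15 and 2.01, limma adjusted p = 0.0197) and ASNS (0.85, 1.69 and 1.80, limma adjusted p = 0.0361). Beside them stood NUPR1 (0.83, 1.89 and 1.87, limma adjusted p = 0.0939), SERPINA3 (0.76, 2.59 and 2.21, limma adjusted p = 0.000863), LAMP3 (0.71, 3.64 and 3.55, limma adjusted p = 7.52e-09) and CDH1 (0.64, 0.96 and 1.83, limma adjusted p = 0.00342). They also held SLPI (0.63, 2.73 and 2.89, limma adjusted p = 5.44e-08), LCN2 (0.62, 4.50 and 4.81, limma adjusted p = 4.46e-09), NIBAN1 (0.54, 2.37 and 2.72, limma adjusted p = 5.84e-06) and SLC6A9 (0.51, 1.77 and 1.56, limma adjusted p = 0.0137). The set also held SLC7A11 (0.51, 1.34 and 1.35, limma adjusted p = 0.0329), ALDH1L2 (0.49, 1.62 and 1.18, limma adjusted p = 0.00116), ITGA3 (0.48, 1.32 and 0.96, limma adjusted p = 0.0895) and PSMB9 (0.33, 0.86 and 0.77, limma adjusted p = 0.0446). They also included ATF4 (0.32, 1.34 and 1.08, limma adjusted p = 0.00392), SLC43A1 (0.30, 1.13 and 0.89, limma adjusted p = 0.0258), TRIB3 (0.24, 2.24 and 2.09, limma adjusted p = 1.41e-06) and ATF5 (0.16, 1.78 and 1.81, limma adjusted p = 6.37e-07). Further genes were DDIT3 (0.02, 1.51 and 1.75, limma adjusted p = 1.56e-05), EIF2B1 (-0.19, -0.72 and -0.16, limma adjusted p = 0.0197), ASB4 (-0.31, -0.88 and -0.75, limma adjusted p = 0.0455) and NDUFS3 (-0.57, -0.14 and -0.26, limma adjusted p = 0.0928). The last was AEN (-0.66, -0.39 and -0.09, limma adjusted p = 0.0799).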

How the results depend on the processing

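All p-values within a line are from 4 pairs of libraries of unknown depth, or for TE from 4 pairs of lysates. Those of the difference among lines are from 24 RPF libraries. The calls in shCTRL rest on weeks 2 to 4. With each week left out in turn, called genes in shCTRL ranged from 3 to 3526 in RPFs (1098 with all weeks), from 3 to 2452 in total RNA (531), and from 0 to 621 in TE (42). In the other comparisons they ranged from 4538 to 5200 for shEIF2B1 RPFs (5507), from 1024 to 4507 for shEIF2B4 RPFs (2655), and from 83 to 1104 for the difference among lines (1015). The highest number came without week 3 for shEIF2B1 and without week 1 in the other comparisons. With no replicate block, limma called 0 genes in RPFs (830 at an unadjusted p under 0.05), 9 in total RNA, 0 in TE (308 unadjusted), 1487 for shEIF2B1, 202 for shEIF2B4 and 48 for the difference among lines. At an adjusted p under 0.05 the numbers were 274, 41 and 0 in shCTRL and 437 for the difference. With the CDS GC trend removed they were 613 in RPFs and 2 in TE, and with the CDS length trend removed 6 in TE. TE also had 0 calls without the mean-variance trend (1618 unadjusted) and 20 in a fit of all 24 libraries. With the GC trend removed, 0 WNT targets were called lower and 0 epithelial markers higher, so that the direction with more calls turned in both lists. Of 119 named genes called in RPFs, 119 kept their call and direction without week 1, and 3 to 4 without another week. Without the block 0 of the 119 were called. The cause was not tested.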
